A study of Arabidopsis thaliana with 24 samples.

Results

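The experiment described here is the chilling of wild-type Arabidopsis thaliana seedlings for 3 h from ZT45, taken as the 3 Col-0 libraries labelled 4 °C at ZT45 against the 3 Col-0 libraries labelled 19 °C at ZT45, which are 6 of the 24 libraries in the series. Zeitgeber time (ZT) counts hours from lights-on of the last light/dark cycle. All 24 samples were pools of 10 whole seedlings grown at 19 °C in a 12 h photoperiod for 11 days and then kept for 24 h in continuous light. From ZT45, in the late subjective night, seedlings either went to 4 °C for 3 h or stayed at 19 °C in parallel. Below, rose and fell compare chilled libraries with these parallel controls. The series has no library from the start of chilling, so changes over those hours in chilled seedlings and in controls cannot be told apart. A second time set was chilled for 5 h from ZT27, in the subjective morning, and both sets were repeated in sig5-3, a T-DNA insertion line of the SIG5 gene, with 3 libraries in each of the 8 groups. The start and the length of chilling change together between the time sets, so their effects cannot be told apart.

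In Arabidopsis, low temperature is known to induce the C-repeat binding factors (CBFs), transcription factors that bind the C-repeat motif in promoters of cold-regulated (COR) genes, whose products protect membranes and proteins. The circadian clock is known to gate this induction, so that the same chilling gives different transcript responses at different times of day. The clock itself is a set of repressors and activators expressed in sequence through the day, from the morning MYB factors CCA1 and LHY through the PRR proteins to the evening complex.

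Poly(A) RNA was sequenced, and the deposited table holds a normalised read abundance (called the value below) for each gene. It is not divided by gene length, so values are compared between libraries for 1 gene and never between genes. Of 37336 genes in the table, 17952 had values and were tested, of which 17515 are protein coding, and none is from an organelle genome. The 6 libraries summed to between 861490 and 906574, and the spacing of their low values puts them at an estimated 30400000 to 35900000 reads each. In log2 values, libraries of the same temperature correlated at 0.9942 to 0.9961 across genes, and libraries of different temperatures at 0.9704 to 0.9748. A sig5-3 library outside the comparison (4 °C at ZT27, replicate 1) stood apart from its group, and leaving it out of the fit left the same 228 genes called. As a check of tissue, FAMA, MYB60 and HT1 (guard cells) and SUC2, APL and SEOR1 (phloem) all had values and did not pass the test below. Of 7 root genes EXPA7, COBL9 and WER had no value. Of the 4 root genes with values 3 passed as higher at 4 °C: SCR (37.2 to 49.0), NRT2.1 (1.19 to 2.51) and PIN2. PIN2 did not pass without 19 °C replicate 1 (adjusted p = 0.081, limma) or 4 °C replicate 3 (adjusted p = 0.2). The part of these markers in the results below was not tested. In whole seedlings, fewer cells of a type and less RNA per cell cannot be told apart.

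Within 3 h at 4 °C, most cold-protective and flavonoid genes and several evening clock genes rose, most light-harvesting genes and abscisic acid receptors and the growth regulators PIF4 and PIF5 fell, and the B-box factors split. Genes with an adjusted p below 0.05 (limma on log2(value + 0.5), Benjamini-Hochberg over 17952 genes) passed, and a gene was called when its log2 fold change was also beyond 1.5 in either direction. All fold changes below are 4 °C over 19 °C on that log2(value + 0.5) scale, which understates the change of low genes, with the standard error (SE) of the fit and n = 3 libraries each. By this rule 228 genes (1.27%) were called, 139 higher (0.774%) and 89 lower (0.496%). A larger set of 6396 genes (35.6%) passed, of which 3618 (20.2%) were higher and 2778 (15.5%) lower at 4 °C. The counts of passed members in the lists below stand against these shares. Most of the passed changes were small, with 5763 of 6396 under 1 on the log2 scale. The median change over all genes was 0.03. The split of the passed genes depended on the scaling of the libraries: 56.6% were higher with the authors' scaling and 36.1% (2344 higher, 4156 lower) after scaling to equal upper quartiles, which moved the median of all genes by -0.086. The called genes split 139 to 89 and 120 to 106 under those scalings.

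**Figure D1:**
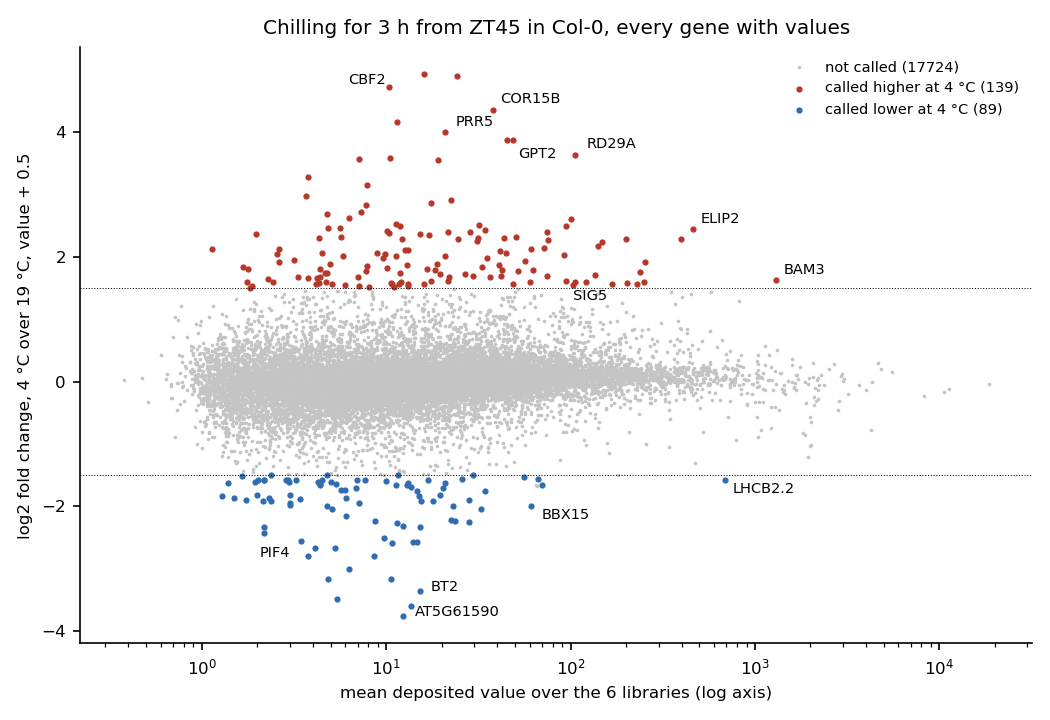
Log2 fold change (4 °C over 19 °C, value + 0.5) of 17952 genes against the mean deposited value over the 6 libraries on a log axis, with dotted lines at the threshold of 1.5. The 139 genes called higher reach 4.93 and the 89 called lower reach -3.76, and most called genes lie at low to middle values, with BAM3 and LHCB2.2 as the called genes of highest mean in each direction.

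The genes called higher had low controls. Their median mean was 5.16 at 19 °C and 24.2 at 4 °C, against a median of 13.7 at 19 °C over all genes. For the genes called lower it was 10.8 at 19 °C and 2.29 at 4 °C. The 3 and 3 libraries did not overlap in 138 of the 139 genes called higher and in all 89 called lower. Over all genes the libraries did not overlap in 51.7%, with 29.1% above and 22.6% below the controls.

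The CBF pathway was represented by CBF2, since CBF1 and CBF3 had no value in the table. CBF2 (AT4G25470, chr4:13015250-13016235, TAIR10.1), which activates COR genes, read 0.293, 0.200 and 0.368 at 19 °C and 18.7, 17.9 and 24.4 at 4 °C. All chilled libraries lay above all controls, as in 29.1% of all genes. The mean rose from 0.287 ± 0.0842 to 20.3 ± 3.54 (SD), 4.72 ± 0.12 on the log2 scale (adjusted p = 3.1e-19, limma). The 19 °C values were above 0.0733 to 0.0891, the level of 3 reads in these libraries. COR27 and COR28, night-phased regulators that act between clock and cold response, rose from 0.656 to 4.58 and from 0.811 to 4.45. Upstream regulators of the CBF genes changed less: ICE1, an activator of CBF genes, passed at 0.31 ± 0.05, its relative ICE2 at -0.40 ± 0.06, the kinase OST1 at 0.34 ± 0.08 and the ubiquitin ligase HOS1, which targets ICE1, at 0.28 ± 0.06. In the whole list, which counts CBF2, COR27 and COR28 themselves, 6 of the 11 genes with values passed as higher, 2 as lower and 3 did not pass, with a median of 0.28. CAMTA1, the other lower gene besides ICE2, did not pass without 19 °C replicate 1 (-0.25, adjusted p = 0.06, limma) or 4 °C replicate 2 (-0.22, adjusted p = 0.08).

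The promoters of the cold-protective genes show the sequence this pathway reads. Below are the 250 bases upstream of the annotated start of 3 of them, 5′ to 3′ on the gene's strand (RefSeq TAIR10.1), with CCGAC, the core of the C-repeat, in capitals on either strand. They are RD29A (chr5:21240467-21240716, plus strand), COR15A (chr2:17712331-17712580, minus strand) and LTI30 (chr3:18940393-18940642, plus strand), chosen because they were called higher and hold the motif in this window.
RD29A: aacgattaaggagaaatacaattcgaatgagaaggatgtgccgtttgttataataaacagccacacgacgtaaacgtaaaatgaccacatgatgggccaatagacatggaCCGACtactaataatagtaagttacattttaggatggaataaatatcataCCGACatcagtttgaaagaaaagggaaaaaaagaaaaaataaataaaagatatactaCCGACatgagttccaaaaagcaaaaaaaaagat
COR15A: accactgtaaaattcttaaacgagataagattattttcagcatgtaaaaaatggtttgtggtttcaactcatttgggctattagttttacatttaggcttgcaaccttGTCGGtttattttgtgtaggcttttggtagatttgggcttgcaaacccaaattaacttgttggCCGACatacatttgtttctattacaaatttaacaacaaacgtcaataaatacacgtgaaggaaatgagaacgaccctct
LTI30: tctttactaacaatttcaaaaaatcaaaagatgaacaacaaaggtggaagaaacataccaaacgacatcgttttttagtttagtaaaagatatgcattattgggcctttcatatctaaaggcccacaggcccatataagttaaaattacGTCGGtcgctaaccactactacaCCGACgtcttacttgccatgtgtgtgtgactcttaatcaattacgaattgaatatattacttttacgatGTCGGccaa
RD29A held the core 3 times, starting 140, 90 and 33 bases before the gene start, LTI30 held it 3 times, at 101, 78 and 9 bases, and COR15A 2 times, at 142 and 79 bases. In 500 bases upstream, 11 of the 17 cold-protective genes with values (64.7%) held CCGAC on either strand, against 23.1% of all genes tested, 31.7% of those called higher and 18.0% of those called lower. A match describes these letters and not a bound site.

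Genes of the cold-protective proteins, many of which shield membranes or enzymes during freezing, rose as a group. RD29A (AT5G52310) read 13.8, 18.4 and 13.9 at 19 °C and 177, 213 and 198 at 4 °C. COR15B, a stromal protein that stabilises chloroplast membranes, read 2.64, 4.52 and 2.43 at 19 °C and 68.0, 73.9 and 75.6 at 4 °C. The groups were far apart in both genes, with fold changes of 3.64 ± 0.11 for RD29A (adjusted p = 3.3e-17) and 4.35 ± 0.19 for COR15B (adjusted p = 1.4e-12, limma). COR15A, its close relative, rose less, from 17.1 ± 3.56 to 72.0 ± 7.45. The dehydrins LTI30 (2.40 ± 0.17), ERD10 (2.24 ± 0.08) and COR47 (0.98 ± 0.10) rose by unequal amounts, as did KIN2 (2.27 ± 0.14) and ERD7 (1.38 ± 0.08). Of the 17 members with values, 15 passed as higher, none as lower and 2 did not pass, with a median of 0.93 against 0.03 over all genes. Close relatives such as COR15A and COR15B can share reads, and the sources do not say how the authors assigned these.

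Early transcription factors of the cold response, which are known to appear alongside the CBFs, rose in most cases. ZAT6 read 2.1, 2.03 and 3.68 at 19 °C and 29.4, 38.2 and 38.6 at 4 °C (3.56 ± 0.19, adjusted p = 6.5e-12, limma). ZAT10, a zinc-finger repressor induced by many stresses, read 3.69, 4.63 and 6.76 at 19 °C and 34.3, 42.1 and 44.2 at 4 °C. Both sets of chilled libraries were several times above every control. ZAT12 rose from 3.24 to 20.5, CZF1 from 19.6 to 64.2, HSFC1 from 5.41 to 16.6 and ERF5 from 2.26 to 6.99. TEM2, a repressor of flowering, fell from 33.1 to 20.1 and was the 1 member of 18 that passed as lower, while 14 passed as higher and 3 did not pass, with a median of 1.17.

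**Figure D2:**
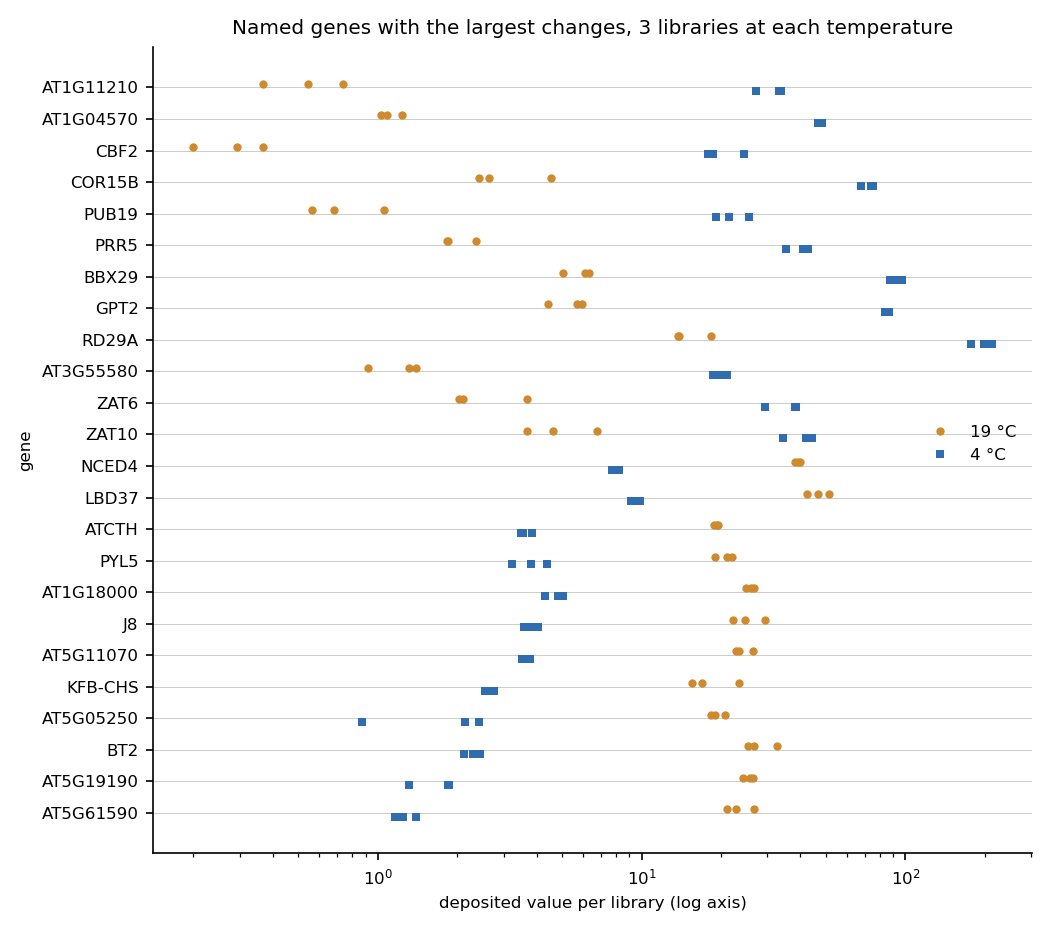
Deposited values in each of the 3 libraries at 19 °C (circles) and at 4 °C (squares), log axis, for 12 genes called higher and 12 called lower, those that changed most at a mean of 10 or more. The 2 temperatures do not overlap in any of the 24 genes, which the naming rule required.

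Among compatible solutes, GOLS3, which makes galactinol for raffinose, rose from 0.948 to 8.65, and RS5, a raffinose synthase, from 33.8 to 78.4. P5CS2, a proline biosynthesis enzyme, rose from 111 to 217. DIN10, a raffinose synthase relative induced in the dark, fell from 67.7 to 34.8. PRODH1, which degrades proline, moved from 116 to 70.3 (-0.68 ± 0.24), and this passed no longer without 19 °C replicate 1 (-0.72, adjusted p = 0.054), 19 °C replicate 3 (-0.46, adjusted p = 0.16), 4 °C replicate 1 (-0.61, adjusted p = 0.098) or 4 °C replicate 3 (-0.67, adjusted p = 0.07). Of 8 members 6 passed as higher and 2 as lower, with a median of 0.75. When the fit held the 6 libraries alone, 6 passed as higher and 0 as lower, since DIN10 (adjusted p = 0.053) and PRODH1 (adjusted p = 0.099) did not pass. Among fatty acid desaturases, ADS2 rose by 1.05 ± 0.06 and FAD3 by 0.98 ± 0.07. Of the 11 membrane lipid genes 4 passed as higher, against 20.2% of all genes, and 7 did not pass (median 0.17).

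The clock genes did not move together. The evening-phased PRR5 and FKF1 were among the largest increases, while LNK1, LNK2, LNK4, PRR7 and CHE fell. Of the central MYB genes CCA1 rose, and LHY did not pass in the main fit. PRR5 (AT5G24470), a pseudo-response regulator that represses CCA1 and LHY, read 2.35, 1.83 and 1.84 at 19 °C and 42.8, 35.3 and 40.8 at 4 °C. FKF1 (AT1G68050), a blue-light receptor in a ubiquitin ligase that removes flowering repressors, read 0.782, 0.8 and 0.473 at 19 °C and 13.3, 12.4 and 14.9 at 4 °C. The chilled libraries were about 19.8 times the controls in PRR5 and 19.7 times in FKF1, 4.00 ± 0.10 and 3.57 ± 0.10 on the log2 scale (adjusted p = 5.6e-19 and 1.3e-18, limma). Other evening genes rose less, with TOC1 from 22.6 to 50.7, ELF4 from 3.93 to 8.24, LKP2 from 9.90 to 17.8 and GI from 5.12 to 7.31.

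Upstream of several of these genes lies the evening element, AAAATATCT, which the CCA1 family of MYB factors is known to bind. The windows of PRR5 (chr5:8358547-8358796, minus strand), FKF1 (chr1:25508389-25508638, plus strand) and GPT2 (chr1:22824164-22824413, plus strand), a sugar phosphate transporter gene described below, are shown in the same way with this element in capitals. These 3 were called higher and hold it within 250 bases.
PRR5: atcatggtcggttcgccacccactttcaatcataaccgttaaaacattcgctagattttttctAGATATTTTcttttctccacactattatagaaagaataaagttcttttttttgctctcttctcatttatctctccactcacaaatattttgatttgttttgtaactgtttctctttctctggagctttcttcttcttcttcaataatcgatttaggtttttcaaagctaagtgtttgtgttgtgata
FKF1: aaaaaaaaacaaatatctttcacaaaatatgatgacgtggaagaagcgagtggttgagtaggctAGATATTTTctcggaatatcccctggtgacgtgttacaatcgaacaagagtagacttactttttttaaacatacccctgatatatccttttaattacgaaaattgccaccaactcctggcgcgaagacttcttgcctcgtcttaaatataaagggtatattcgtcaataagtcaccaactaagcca
GPT2: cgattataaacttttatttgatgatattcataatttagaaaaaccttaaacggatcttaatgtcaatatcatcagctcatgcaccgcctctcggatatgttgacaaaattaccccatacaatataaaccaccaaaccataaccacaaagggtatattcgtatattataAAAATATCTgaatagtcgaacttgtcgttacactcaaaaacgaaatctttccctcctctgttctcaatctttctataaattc
The element started 187 bases before the gene start in PRR5, 186 in FKF1 and 82 in GPT2. In 500 bases upstream it was present in 21 of the 139 genes called higher (15.1%), in 6 of the 89 called lower (6.74%) and in 4.51% of all genes tested, and in 5 of the 14 PRR and evening genes (35.7%). The G-box, CACGTG, was present upstream of 23.0% of the genes called higher, 16.9% of those called lower and 10.2% of all genes. Both strands were searched for each of the 3 motifs, and none contains another.

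Among the genes that fell, LNK1, which works with RVE8 to activate evening genes, read 31.7, 30.2 and 33.6 at 19 °C and 9.34, 9.72 and 11.1 at 4 °C. LNK2 read 219, 198 and 249 at 19 °C and 101, 96.6 and 103 at 4 °C. PRR7, a morning repressor, read 15.5, 14.5 and 16.6 at 19 °C and 6.25, 6.36 and 6.86 at 4 °C. Every chilled library lay below every control in these genes, as in 22.6% of all genes. The fold changes were -1.62 ± 0.13 for LNK1, -1.14 ± 0.11 for LNK2 and -1.19 ± 0.07 for PRR7 (adjusted p = 3.8e-09, 2.6e-08 and 1.2e-12, limma). LNK4 fell from 25 to 8.61, and CHE, a TCP factor that represses CCA1, from 21.9 to 13.0. CCA1 rose from 157 ± 4.88 to 284 ± 6.68, and its relatives RVE1 and RVE2 from 35.4 to 90.7 and from 29.2 to 67.7. LHY, the partner of CCA1, gave 0.18 ± 0.12 and PRR9 0.29 ± 0.23, and neither passed (adjusted p = 0.26 for LHY). When the fit held the 6 libraries alone, LHY passed at the same change (0.18, adjusted p = 0.0086, limma). Of the 12 MYB and LNK genes 6 passed as higher and 3 as lower (median 0.20), and of the 14 PRR and evening genes 9 passed as higher and 2 as lower (median 0.42).

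Genes that link day length to flowering also rose. CDF1, a repressor of CO and FT that FKF1 targets for degradation, read 14.4, 13.6 and 13.2 at 19 °C and 47.1, 41.6 and 47.6 at 4 °C (1.69 ± 0.10, adjusted p = 2.7e-12, limma). CO, the activator of FT, read 3.32, 3.92 and 2.97 at 19 °C and 11.0, 10.2 and 11.2 at 4 °C (1.54 ± 0.10). Both were about 3 times as high in each chilled library as in the controls. CDF5 (1.34 ± 0.21), CDF3 (1.04 ± 0.06) and FT (0.59 ± 0.17) passed as higher as well, and 5 of 8 members passed, all higher.

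The B-box zinc-finger family divided sharply. BBX29 (AT5G54470) read 6.35, 6.12 and 5.02 at 19 °C and 91.6, 87.6 and 97.1 at 4 °C (3.88 ± 0.12, adjusted p = 1.5e-17, limma). BBX31, BBX32 and BBX30, small members with a single B-box that act in light signalling, rose from 8.03 to 40.9, from 10.4 to 51.8 and from 2.03 to 9.63, and BBX25 from 52.4 to 154. The CO-like members went the other way: BBX15 (AT1G25440) read 102, 101 and 90.4 at 19 °C and 25.3, 26.2 and 20.8 at 4 °C. BBX14 fell from 107 ± 8.41 to 33.4 ± 1.84 and BBX17 from 4.00 ± 0.835 to 0.341 ± 0.205. BBX27 fell from 9.83 to 2.34. Of 17 members 10 passed as higher, 6 as lower and 1 did not pass, with a median of 0.79.

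Regulators of elongation growth moved in both directions. PIF4 (AT2G43010), a factor that drives elongation in warmth, read 7.21, 5.32 and 6.16 at 19 °C and 0.464, 0.624 and 0.841 at 4 °C (-2.56 ± 0.12, adjusted p = 5.1e-14, limma). PIF5 read 55.4, 49.0 and 55.9 at 19 °C and 14.3, 16.6 and 15.7 at 4 °C (-1.75 ± 0.08). The chilled means were 10.3% of the control mean in PIF4 and 29.1% in PIF5. PIF1 fell by 1.19 ± 0.11, while PIF7, which also promotes elongation, rose by 0.89 ± 0.08. GA3OX1, which makes active gibberellin, fell from 7.97 to 1.62 and GA20OX1, a step before it, from 1.96 to 0.770, whereas GA2OX1 and GA2OX6, which inactivate gibberellin, rose from 0.294 to 1.13 and from 1.70 to 3.39. Of the 16 growth regulators 5 passed as higher and 7 as lower (median -0.22), against 20.2% and 15.5% of all genes. Wall-loosening genes were mixed: the expansin genes EXPA8 (8.37 to 2.34) and EXPA1 (156 to 81.0) and EXO (39.9 to 14.8) fell, and EXL4 (8.76 to 24.0) and EXPA10 (86.5 to 146) rose, with 4 higher, 3 lower and 3 not passed of 10.

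**Figure D3:**
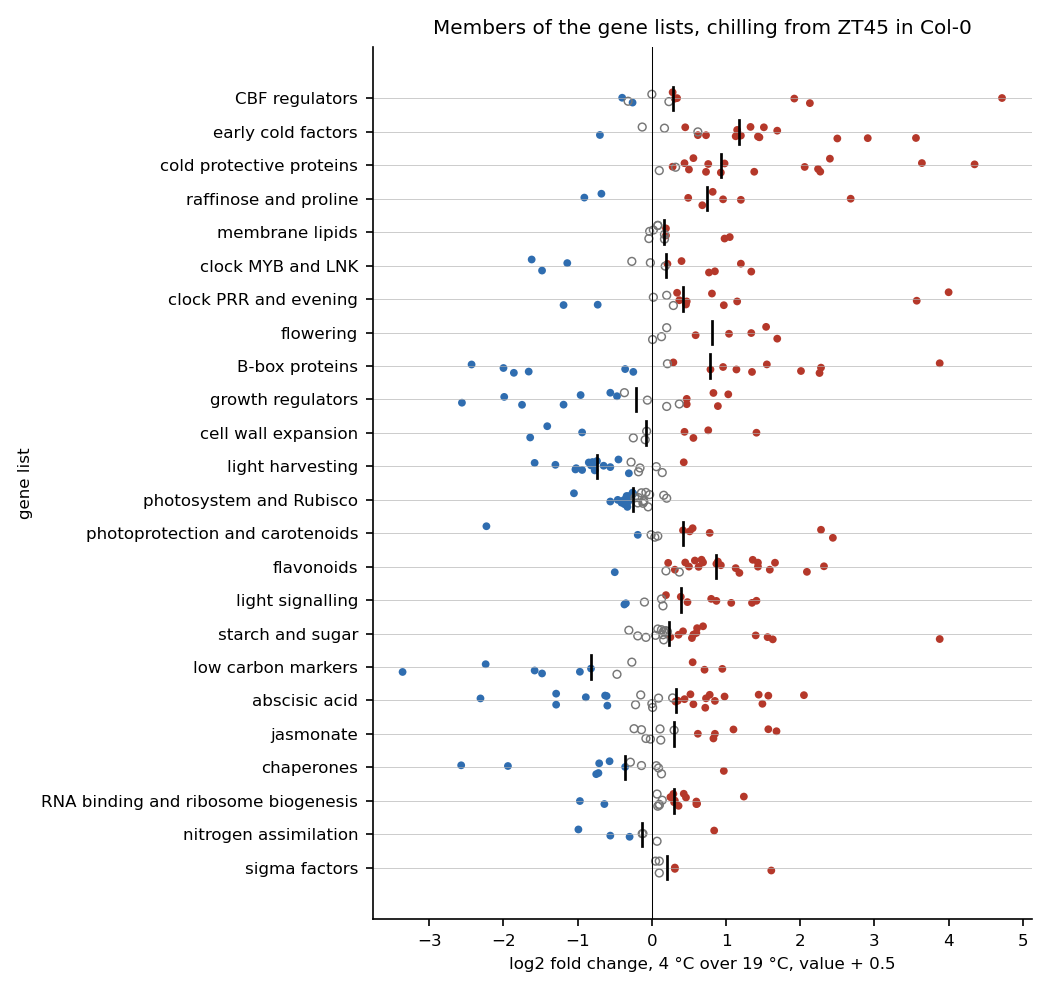
Log2 fold change (4 °C over 19 °C, value + 0.5) of each member with values of 24 gene lists, 1 point per gene, filled where it passed (red higher, blue lower) and open where it did not, with a bar at the list median. The cold-protective and flavonoid lists lie mostly right of 0 (medians 0.93 and 0.87), the light-harvesting list mostly left (median -0.74), and the B-box list on both sides.

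The nuclear genes for light-harvesting proteins, which bind chlorophyll around both photosystems, fell in most cases. LHCB2.2 (AT2G05070) read 1079, 1027 and 1006 at 19 °C and 342, 343 and 352 at 4 °C (-1.58 ± 0.09, adjusted p = 2.1e-12, limma). LHCB3 fell from 2659 ± 153 to 1298 ± 67.1, and LHCA4 of photosystem I from 2690 ± 96.8 to 1324 ± 81.1. In these 3 genes every chilled library lay below every control, as in 22.6% of all genes. LHCB2.3 fell by 1.3 ± 0.11 and LHCB4.2 by 0.94 ± 0.10. LHCB1.3, one of several LHCB1 copies, gave -0.16 ± 0.11 and did not pass (adjusted p = 0.3, and 0.043 at the same change without the sig5-3 library that stood apart), while the neighbouring copy LHCB1.1 fell by 0.77 ± 0.10. These copies are nearly identical in sequence and their reads may be split between them. LHCB7, a rare member, rose by 0.43 ± 0.08. Of the 21 genes 15 passed as lower, 1 as higher and 5 did not pass, with a median of -0.74 against 0.03 over all genes. Subunits of the photosystems and Rubisco moved in the same direction by less: 15 of 27 passed as lower, none as higher, with a median of -0.26, and PSAD2 of photosystem I had the largest change of the list, from 464 to 224. When the fit held the 6 libraries alone, 22 of these 27 genes passed as lower and 2 as higher. In the light-harvesting list 18 then passed as lower and 2 as higher. RBCS1A, a Rubisco small subunit, was at 18713 and 18371.

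Photoprotective genes did not follow the antenna genes. The early light-induced proteins ELIP1 and ELIP2, relatives of the antenna proteins that appear under light stress, were among the called genes of highest mean. ELIP2 (AT4G14690) read 134, 140 and 153 at 19 °C and 698, 890 and 749 at 4 °C (2.44 ± 0.20, adjusted p = 1.1e-08, limma), and ELIP1 rose from 135 ± 5.49 to 658 ± 45.7. BCH2, a carotene hydroxylase, rose by 0.78 ± 0.12. NCED4, a carotenoid-cleaving dioxygenase, read 39.3, 38.0 and 39.7 at 19 °C and 7.80, 7.73 and 8.25 at 4 °C, a fall of 2.23 ± 0.09. Of 11 members 6 passed as higher and 2 as lower, the other being ZEP, which makes violaxanthin (-0.19 ± 0.05), with a median of 0.42.

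Flavonoid synthesis was higher at most steps. MYB12 and MYB111, activators of flavonol genes, rose from 1.57 ± 0.415 to 9.78 ± 1.51 and from 15.5 ± 1.80 to 67.4 ± 0.815 (2.32 ± 0.15 and 2.09 ± 0.13, adjusted p = 1.3e-11 and 3.4e-11, limma). UGT78D2 (AT5G17050), which adds glucose to flavonols and anthocyanins, read 118, 143 and 112 at 19 °C and 367, 376 and 380 at 4 °C. PAL2, at the entry to phenylpropanoids, rose from 313 to 845, CHS, the first committed enzyme, from 911 ± 83.4 to 1363 ± 61.8, and MYB75, an anthocyanin activator, from 8.81 to 23.1. MYBL2, a repressor of anthocyanin genes, fell from 7.09 to 4.85. Of 23 members 20 passed as higher, 1 as lower and 2 did not pass, with a median of 0.87. In light signalling, HY5, a factor that activates flavonoid and B-box genes, read 15.3, 15.9 and 15.5 at 19 °C and 41.4, 40.3 and 45.3 at 4 °C (1.41 ± 0.09), and RUP1 and RUP2, which switch off the UV-B receptor, rose by 1.35 ± 0.15 and 1.07 ± 0.11. The photoreceptor genes CRY1 (-0.37 ± 0.06) and CRY2 (-0.35 ± 0.05) were the members of 13 that passed as lower, while 8 passed as higher.

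Starch and sugar genes rose where they passed in the main fit. GPT2 (AT1G61800), which imports glucose 6-phosphate into plastids, read 4.42, 5.95 and 5.68 at 19 °C and 83.7, 86.6 and 85.2 at 4 °C (3.88 ± 0.19, adjusted p = 3.2e-12, limma). BAM3, the main β-amylase of leaf starch breakdown at night, read 636, 667 and 613 at 19 °C and 1955, 1984 and 1973 at 4 °C, and lies over the antisense gene AT4G06665, whose reads cannot be told apart from its own without knowing whether strand was used in counting. PHS2, a cytosolic phosphorylase, rose from 84.7 to 250, and GBSS1, the amylose synthase, from 248 to 652. Of 24 members 12 passed as higher and none as lower (median 0.23), and 1 passed as lower after scaling to equal upper quartiles. When the fit held the 6 libraries alone, 14 passed as higher and 2 as lower. Genes known to be induced by low carbon fell in part: BT2 (AT3G48360), a sugar-repressed BTB protein, read 25.3, 26.8 and 32.6 at 19 °C and 2.45, 2.29 and 2.13 at 4 °C (-3.36 ± 0.16, adjusted p = 1.9e-13), BT5 fell from 14.7 to 2.68, BZIP1 from 4.61 to 1.23 and AKINBETA1 from 8.86 to 4.76. BT1, BT3 and BT4 rose by 0.55 to 0.95. Of 11 members 6 passed as lower and 3 as higher, with a median of -0.82.

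Most abscisic acid receptors fell, while several enzymes and downstream regulators rose. PYL5 (AT5G05440) read 21.1, 19.0 and 22.1 at 19 °C and 3.22, 4.37 and 3.81 at 4 °C (-2.31 ± 0.15, adjusted p = 2.7e-11, limma), PYL4 fell from 70.7 to 28.5, PYL7 from 8.93 to 3.35 and PYR1 from 38.7 to 20.6. NCED3, the rate-limiting synthesis enzyme, rose from 0.693 to 4.42, CYP707A2, which degrades the hormone, from 12.1 to 34.8, the phosphatase ABI1, which the receptors inhibit, from 26.4 to 72.9, and the bZIP factor ABF1 from 5.16 to 16.3. All 7 members that passed as lower were receptors of the PYR/PYL family. PYL9, another receptor, went from 5.52 to 7.18 (0.35 ± 0.13, adjusted p = 0.032), and did not pass with upper-quartile scaling (0.27, adjusted p = 0.11) or without any 1 of 5 libraries, 4 °C replicate 1 being the exception (0.33 to 0.36, adjusted p = 0.06 to 0.088). Of 27 members 14 passed as higher and 7 as lower, with a median of 0.32; the counts were 11 and 8 after scaling to equal upper quartiles. In the jasmonate list 6 of 13 passed as higher and none as lower, against 20.2% and 15.5% of all genes. Among those higher were the repressors JAZ1 (17.6 to 55.7) and JAZ9 (57.9 to 125). The counts were 6 and 1 with upper-quartile scaling, and 3 and 0 when the fit held the 6 libraries alone. MYC2, the central jasmonate factor, read 5.52, 8.97 and 9.13 at 19 °C and 29.9, 18.7 and 23.9 at 4 °C. It was called at 1.57 ± 0.55 (adjusted p = 0.036) and did not pass when any of 5 libraries was left out, for example without 4 °C replicate 1 (1.4, adjusted p = 0.11).

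Chaperones were lower or did not pass, with 1 exception. J8 (AT1G80920), a chloroplast J-domain protein, read 24.7, 22.3 and 29.3 at 19 °C and 3.60, 4.05 and 3.86 at 4 °C, and its relative J20 fell from 11.6 to 2.66. The heat-shock genes HSP101 and HSFB2B fell by 0.72 ± 0.14 and 0.75 ± 0.09. DJC76, a further J-domain gene, rose from 11.5 to 22.9. Of 13 members 7 passed as lower and 1 as higher (median -0.36). Among RNA-binding and ribosome biogenesis genes 11 of 18 passed as higher and 2 as lower (median 0.29). GRP7, a glycine-rich RNA-binding protein controlled by the clock, read 205, 242 and 206 at 19 °C and 486, 543 and 517 at 4 °C (1.24 ± 0.13), and CSP1, a cold-shock-domain protein, rose from 30.7 to 46.8, while the splicing factor genes SR45A and SR30 fell by 0.97 ± 0.14 and 0.64 ± 0.08. Nitrate reductase genes fell, NIA1 from 209 to 105 and NIA2 from 1229 to 832. Of the 7 nitrogen genes 3 passed as lower and 1 as higher, against 15.5% and 20.2% of all genes. SIG5 is a nuclear-encoded sigma factor that directs the plastid RNA polymerase. It read 46.2, 41.4 and 50.6 at 19 °C and 139, 136 and 150 at 4 °C (1.61 ± 0.19, adjusted p = 1e-06, limma). Of the 6 sigma factor genes 3 passed, all higher, against 20.2% of all genes. SIG1 was among the 3 and did not pass with upper-quartile scaling (0.22, adjusted p = 0.084, limma). It also did not pass without 19 °C replicate 2 or without 4 °C replicate 1.

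Several of the largest changes were in genes outside the lists above. AT1G11210, a DUF761 protein gene, had the largest increase of all called genes and read 0.367, 0.543 and 0.737 at 19 °C and 27.1, 33.3 and 33.7 at 4 °C (4.93 ± 0.12, adjusted p = 2.5e-19, limma). AT1G04570, annotated as a major facilitator transporter, rose from 1.12 ± 0.108 to 47.5 ± 0.798, the ubiquitin ligase gene PUB19 from 0.768 to 22 and AT3G55580, an RCC1-family gene, from 1.21 to 19.8. CIPK7, a kinase of the calcium-sensing CBL network, read 105, 103 and 107 at 19 °C and 393, 399 and 405 at 4 °C. Among decreases AT5G61590, annotated as an integrase-type DNA-binding protein, read 22.9, 21.0 and 26.8 at 19 °C and 1.25, 1.4 and 1.16 at 4 °C (-3.76 ± 0.10, adjusted p = 3.4e-19), and AT5G19190, of unknown function, fell from 25.5 to 1.67. The uncharacterised AT5G05250 read 0.873, 2.14 and 2.42 at 4 °C against 19.0, 18.3 and 20.8. AT5G11070 (24.3 to 3.66), the transporter-family genes AT1G18000 (25.8 to 4.73) and AT5G14120 (100 to 33.7), the zinc-finger gene ATCTH (19.3 to 3.64) and AT3G56360 (83.2 to 28.8) were also called lower. The call on AT3G56360 ended without 19 °C replicate 3 (-1.46) or 4 °C replicate 1 (-1.41). LBD37, a repressor of nitrate-responsive genes, fell from 46.8 to 9.45, and KFB-CHS, an F-box protein that targets chalcone synthase for degradation, from 18.7 to 2.67.

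Of the 228 called genes 11 are not protein coding. Among the long non-coding RNA genes AT1G07477 (1.42 to 11.2), AT3G03535 (1.77 to 6.61), AT3G51238 (23.4 to 90.0) and AT5G53048 (5.05 to 16.1) were higher at 4 °C, and AT3G09275 (15.4 to 1.75), AT5G01765 (5.05 to 0.957) and AT2G36792 (3.14 to 0.903) were lower. AT3G51238 lies antisense to F3H, a flavonoid gene that rose from 193 to 512, and AT3G09275 antisense to KFB50, which fell from 10.4 to 0.484, and without strand information these reads cannot be told apart. The pseudogenes AT1G69140 and AT3G60930 were higher and AT2G26220 and AT5G35777 lower. The call on AT2G36792 ended without 19 °C replicate 1 (-1.38) or 4 °C replicate 2 (-1.11) and when the fit held the 6 libraries alone (-1.58, adjusted p = 0.11), and that on AT5G53048 without the same libraries (1.47 and 1.46).

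The 5 h chilling from ZT27 gave a broader response in Col-0, with 833 genes called (4.64%), 573 higher (3.19%) and 260 lower (1.45%). The 2 comparisons share no library. Of the 139 genes called higher at ZT45, 114 were also called higher at ZT27, which is 82.0% of the first list and 19.9% of the second. Of the 89 called lower, 70 were also called lower at ZT27, which is 78.7% and 26.9%. In the test of the difference itself (the log2 response at ZT45 minus that at ZT27), 285 genes were called (1.59%), 49 with a higher response at ZT45 (0.273%) and 236 with a lower one (1.31%), and 4716 (26.3%) passed, 2461 (13.7%) as a higher and 2255 (12.6%) as a lower response. Of the 139 genes called higher at ZT45, 25 had a larger and 63 a smaller response than at ZT27 by this test, and 51 did not pass.

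The genes with a larger rise at ZT45 on the log2 scale included CBF2, PRR5 and FKF1. PRR5 and FKF1 had lower values at ZT45 than at ZT27 in both the controls and the chilled libraries. PRR5 went from 2.01 to 39.6 at ZT45 and from 49.2 to 296 at ZT27, and FKF1 from 0.685 to 13.5 and from 45.5 to 184. CBF2 rose by 4.72 at ZT45 and by 3.80 at ZT27 (difference 0.92 ± 0.17, adjusted p = 0.00018, limma), to similar levels of 20.3 ± 3.54 and 19.2 ± 0.0448 from controls of 0.287 and 0.914. Its targets reached lower levels: RD29A stood at 196 ± 18.0 after chilling at ZT45 and at 3351 ± 80.4 after chilling at ZT27, from 15.4 and 74.7 (difference -1.84 ± 0.16). COR15B rose by a like amount in both, 4.35 and 4.29, from 3.20 to 72.5 and from 31.6 to 628 (difference 0.05 ± 0.27, adjusted p = 0.92), which does not show that the responses were equal. In the cold-protective list 13 of 17 members had a smaller response at ZT45, none a larger one, and 4 did not pass, against 12.6% and 13.7% of all genes for lower and higher responses.

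Some clock and antenna genes changed in opposite directions in the time sets, while PRR5, FKF1, TOC1, GI and CCA1 rose in both. LNK1 fell from 31.8 to 10.1 at ZT45 and rose from 20.9 to 79.9 at ZT27, LNK2 fell from 222 to 100 and rose from 53.2 to 178, and PRR7 fell from 15.5 to 6.49 and rose from 112 to 198. LNK1 is the only called gene of this comparison that was called in the opposite direction at ZT27. LHY, at 303 and 343 here, was at 7.55 and 73.9 in the ZT27 set, and CCA1 at 9.06 and 113. Of the 12 MYB and LNK genes all 12 passed as higher at ZT27, as did 27.6% of all genes, and 9 had a smaller response at ZT45 by the test of the difference, none a larger one. LHCB2.2 fell from 1037 to 346 at ZT45 and rose from 937 to 1418 at ZT27, and 16 of the 21 light-harvesting genes had a smaller and 1 a larger response at ZT45, while 9 of the 21 passed as higher at ZT27. The median response of that list was -0.74 at ZT45 and 0.22 at ZT27. The control levels of the antenna genes named here were close in the 2 sets, 1037 and 937 for LHCB2.2 and 2659 and 2928 for LHCB3, whereas those of LHY, PRR7 and FKF1 (0.685 and 45.5) were not.

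**Figure D4:**
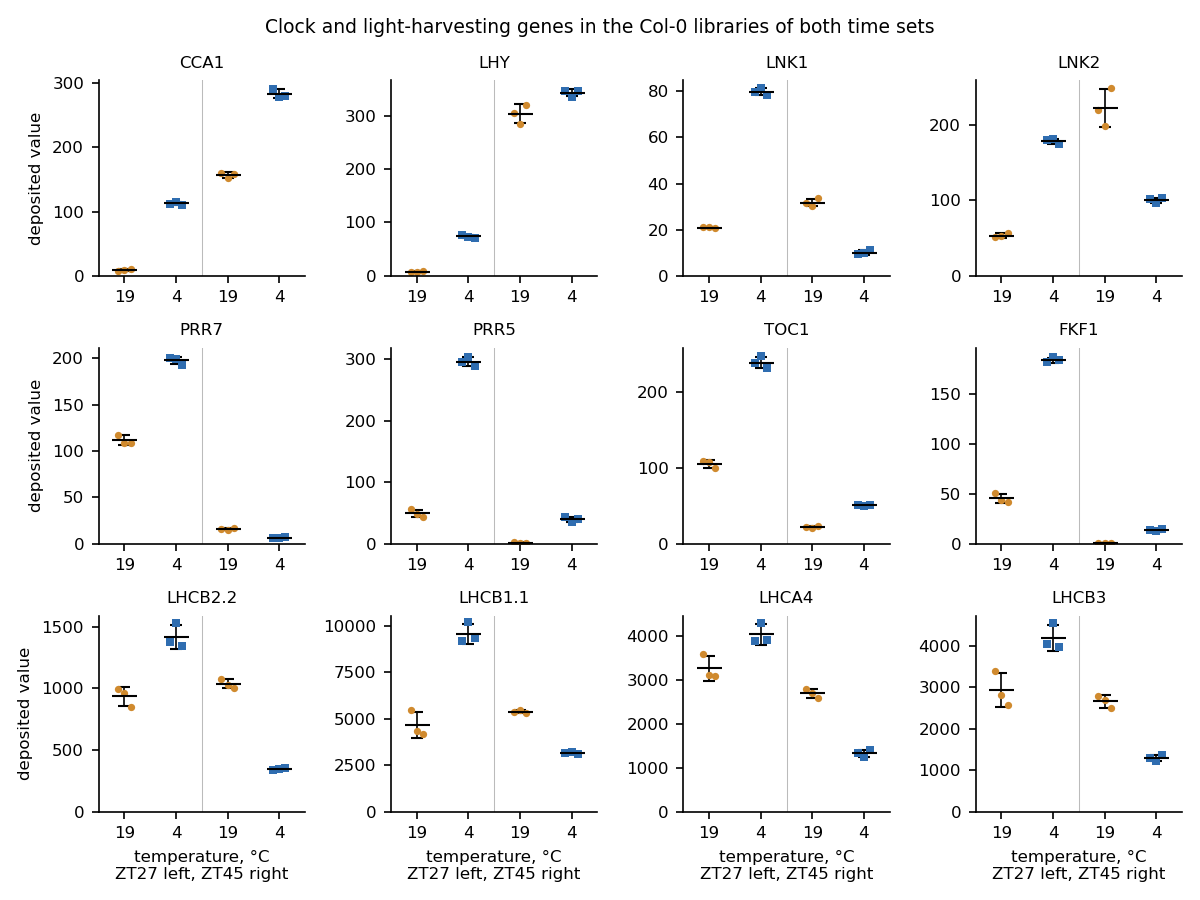
Deposited values of 8 clock genes and 4 light-harvesting genes in the 12 Col-0 libraries, 3 per group (circles 19 °C, squares 4 °C), with the mean and SD as bars and each axis from 0. At ZT27 the chilled libraries of all 12 genes lie above their controls, and at ZT45 those of LNK1, LNK2, PRR7 and the 4 light-harvesting genes lie below theirs.

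**Figure D5:**
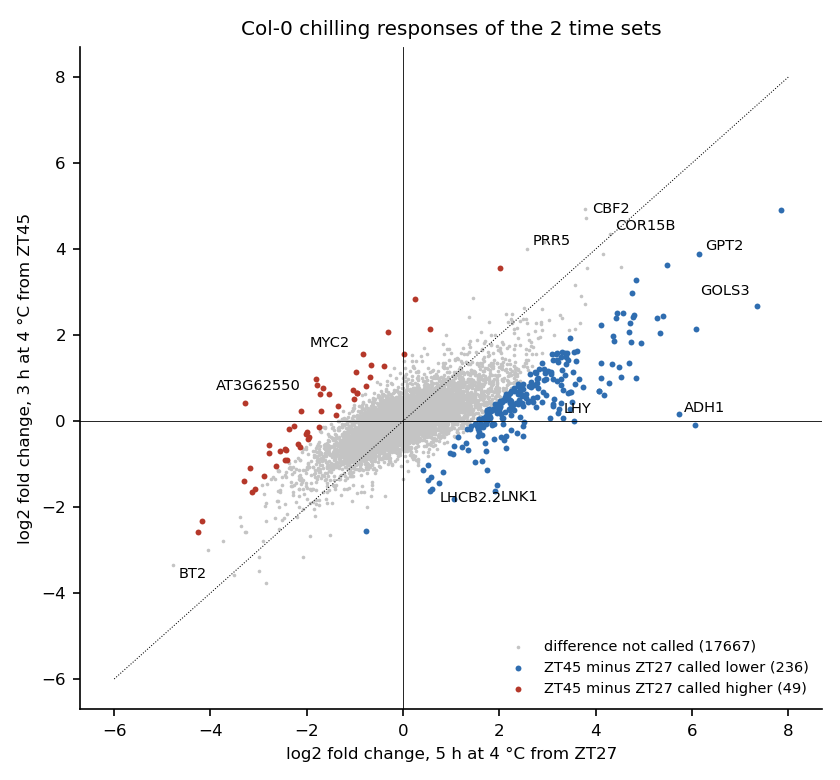
Log2 fold change of 17952 genes after 3 h at 4 °C from ZT45 against that after 5 h at 4 °C from ZT27 in Col-0, with the dotted line at equal response. The 236 genes called for a lower response at ZT45 (blue) lie below the line, among them GOLS3 and ADH1, and the 49 called for a higher one (red) above it.

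In sig5-3 the same chilling gave no gene whose response differed from Col-0. SIG5 itself was at 9.70, 10.2 and 8.49 in the sig5-3 controls at ZT45 and at 26.1, 32.6 and 37.2 after chilling. These values lay below every Col-0 library of the same temperature at ZT45. The test of the genotype difference in response (limma) called 0 genes and passed 0, under the main settings and every alternative run, and 647 genes (3.60%) had an unadjusted p under 0.05. A p that misses the threshold does not show that the genotypes respond alike. Of the 139 genes called higher in Col-0 all 139 passed as higher in sig5-3, and of the 89 called lower 87 passed as lower. These genes were selected for large changes in Col-0, where 20.2% of all genes passed as higher and 15.5% as lower. The share of all genes that passed in sig5-3 is not given here, so these counts have no baseline. CBF2 rose by 4.72 in Col-0 and 5.2 in sig5-3 (difference 0.48 ± 0.17, adjusted p = 1.0), RD29A by 3.64 and 3.55, PRR5 by 4.00 and 3.97 and LHCB2.2 by -1.58 and -1.62.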

How the data were processed

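Whole seedlings of Col-0 and sig5-3 were sampled in 8 groups of 3, grouped by the labels; the design text calls the replicates independent. Libraries were made with a stranded poly(A) kit, and Partek 6.6 and STAR are named in the submitters' processing notes. The authors deposited a table of normalised signal per gene; the assignment of reads, the scaling and any use of strand are not given in the sources used here. Most values (88.5 to 89.3% in the 6 libraries, tolerance 0.05) were whole multiples of 1 read, too few to recover counts, so no count test was run. The design text names the genome TAIR11; coordinates and promoter sequences are RefSeq's for TAIR10.1, matched by locus ID for all 17952 genes with values, and the other 19384 genes have none.

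Values were tested as log2(value + 0.5) with limma 3.58.1 (R 4.3.3), fitted to all 24 libraries as 8 group means with trended, robust moderation and Benjamini-Hochberg adjustment over all genes. The procedure was tested on simulated data. Tables and figures used Python 3.11.15 and matplotlib 3.10.9. The time-set and genotype differences are contrasts of the same fit. Members and gene lists were chosen with earlier results of these data known. Named genes are the 12 largest changes each way at a mean of 10 or more without overlap, the 5 called genes of highest mean each way, up to 5 members each way per list, the 6 largest time-set differences each way and all called genes that are not protein coding. Alternatives changed the pseudocount, a filter on low values, scaling, fold threshold, moderation, the libraries fitted and the replicate block.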

Additional observations from a re-analysis of the deposited data

Results flagged for a closer look

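The response to chilling differed between the time sets in 285 genes (limma, response at ZT45 minus response at ZT27 past the fold threshold of 1.5). The values below are for the 6 genes farthest in each direction, as log2 differences. Picking genes by this difference favours ZT27 responses of the opposite sign.

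The 6 genes with a higher response at ZT45 all had a lower mean at 4 °C than at 19 °C in the ZT27 set. The ZT27 change did not pass in MYC2 (adjusted p = 0.21) or AT1G07050 (adjusted p = 0.08, limma). AT3G62550 (3.71) went from 108 to 10.6 at ZT27 and from 4.06 to 5.6 at ZT45. The J-domain gene DJC76 (2.77) went from 98.9 to 27.8 and from 11.5 to 22.9. GER3, a germin-like protein gene (2.63), went from 928 to 268 and from 307 to 550, and CCL (2.43) from 260 to 81.1 and from 16.7 to 28.6. AT1G07050 (2.38) went from 63.2 to 50.4 and from 3.14 to 14.7. MYC2 (2.41) went from 6.38 to 3.07 and from 7.87 to 24.2, and its difference did not pass without any of 5 libraries, among them 19 °C replicate 2 at ZT27 (2.0, adjusted p = 0.082).

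The 6 genes with a lower response at ZT45 all had a higher mean at 4 °C in the ZT27 set. ADH1, alcohol dehydrogenase (-5.55), went from 6.52 ± 0.525 to 368 ± 6.7 at ZT27 and from 6.56 ± 1.01 to 7.39 ± 0.413 at ZT45 (SD, n = 3 each). GOLS3 (-4.68) went from 2.21 to 445 and from 0.948 to 8.65. AT1G70640 (-3.95) went from 0.631 to 75.7 and from 0.106 to 2.16, LEA3 (-3.84) from 5.39 to 167 and from 27.4 to 55.2, and AT3G04010 (-3.56) from 2.19 to 47.9 and from 0.936 to 1.71. The non-coding AT4G06665 (-6.16) read 10.1, 27.2 and 2.11 at 19 °C and 3.62, 3.38 and 39.7 at 4 °C in the ZT45 set, a spread between replicates that covers both temperatures, and it lies antisense to BAM3.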

How the results depend on the processing

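At ZT45 the 228 called genes became 137 with a pseudocount of 2 and 633 with a fold threshold of 1, where 363 were higher and 270 lower. The 89 called lower became 58 when genes averaging under 5 were left out and 39 with a pseudocount of 2. For the time-set difference a fold threshold of 1 gave 810 calls, 237 higher and 573 lower, and a pseudocount of 0.1 gave 76 higher. Upper-quartile scaling called 226 genes at ZT45, 209 of them among the 228. Leaving out 1 library gave 218 to 236 calls at ZT45 and 273 to 303 for the time-set difference, and 0 for the genotype difference. With 1 library left out, passed genes ranged from 5245 to 7788 at ZT45, the highest without the sig5-3 library that stood apart, and 5181 passed when genes averaging under 5 were left out. The replicate numbers did not pair the samples (correlations of -0.022, -0.099 and -0.28), and a replicate block called 228 genes and passed 6228.

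Of 3266 comparisons of a single gene with an alternative, 3175 kept their direction and side of the threshold, 79 lost and 8 gained it, and 4 reversed. The reversals were all AT4G06665, whose change at ZT45 (-0.09, not passed) ranged from -1.2 to 0.71 as libraries were left out. HSFC1, CO, PHS2, BZIP1, JAZ1 and KFB01 fell below the fold threshold without 1 library (HSFC1 at 1.31 without 4 °C replicate 3) and still passed. The cause was not tested. With 3 pools a group and no raw counts, low genes are the least certain: 19 genes called higher had a 19 °C mean under 1.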

Other observations

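The groups below were chosen after their values were seen, so they carry no test as groups. Genes of the phosphate starvation response rose at 4 °C: of 21 with values 19 passed as higher and none as lower, with a median log2 change of 1.11 against 0.03 over all genes. SPX1, a phosphate sensor, read 27.3, 31 and 26.1 at 19 °C and 168, 178 and 174 at 4 °C (2.61 ± 0.16). GDPD1, which degrades phospholipid products, rose from 28.1 to 161, the glycerol phosphate permease gene G3PP1 from 67.4 to 333 and MGD3, a galactolipid synthase, from 4.48 to 20.9. PHR1, the factor that activates these genes, moved from 40.5 to 46.6 (0.2 ± 0.05). It did not pass with upper-quartile scaling (0.11, adjusted p = 0.11, limma). The PHR1 motif, GNATATNC on either strand in 500 bases upstream, was present in 8 of the 21 genes (38.1%) and in 10.6% of all genes.

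Of 5 Kelch F-box genes that target phenylpropanoid enzymes for degradation, KFB39 had no value. The other 4 all fell: KFB50 from 10.4 to 0.484, KFB-CHS from 18.7 to 2.67, KFB20 from 4 to 0.368 and KFB01 from 3.74 to 0.979. Of the 29 auxin-responsive SAUR genes with values 8 passed as higher and 9 as lower (median -0.16), against 20.2% and 15.5% of all genes. The members ranged from AT1G72430 (52.7 to 12.4) to AT1G20470 (5.3 to 13.6).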
